A study of Homo sapiens with 10 samples.

Results

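Neural progenitor cells (NPCs) labelled as STAMBP knockout cells given CFLAR were set against NPCs labelled as knockout cells given STAMBP, across all expressed genes. The comparison takes 2 libraries labelled KO+CFLAR and 2 labelled KO+STAMBP, 4 of the 10 RNA sequencing libraries of the series, chosen by their labels alone. Of 60898 rows in the deposited count table, 21063 had enough counts to be tested. NPCs were derived from the H1 line of human embryonic stem cells, which is an established cell line, and the study asked what loss of STAMBP changes and how far each added gene returns expression towards unedited cells. By label, both rescue groups are STAMBP knockout NPCs of H1 and differ only in the added gene; the levels of STAMBP and CFLAR, given below, go against the label KO+CFLAR. The other groups are unedited cells (WT) and 2 knockout lines, KO1 and KO2, with 2 libraries each. They enter here as reference levels, and also in the filter on low counts and in the estimate of spread behind the p-values. All sample titles carry the tag P3, which the labels do not explain. From the labels it is not known whether KO1 or KO2 was rescued, whether each rescue is 1 clone or what drives the added gene. They also leave out whether the paired libraries of a group were cultured separately, so the p-values reflect nothing beyond library-to-library spread, possibly technical.

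STAMBP, also known as AMSH, is a deubiquitinase that removes ubiquitin chains from receptors at endosomes, where the ESCRT machinery sorts them towards the lysosome. CFLAR, also known as c-FLIP, resembles caspase-8 without its protease activity and blocks activation of caspase-8 at death receptors. Neural progenitors of the dorsal forebrain divide and give rise to cortical neurons, while the neighbouring cortical hem secretes BMP and WNT ligands and borders the choroid plexus, and the eye field gives rise to retina and pigment epithelium.

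The KO+STAMBP libraries held 18169863 and 17545950 counts and the KO+CFLAR libraries 20314534 and 20832700, so depth was higher in both KO+CFLAR libraries. Levels are given in CPM, counts scaled to a library of 1000000 with TMM factors, and in the order replicate 1 then replicate 2. STAMBP (ENSG00000124356, chromosome 2, 73828916 to 73873659, GRCh38) was at 40.4 and 45.3 CPM in KO+STAMBP and at 42.9 and 40.0 CPM in the libraries labelled KO+CFLAR. CFLAR (ENSG00000003402, chromosome 2, 201116104 to 201176687) was at 32.1 and 32.1 CPM in KO+STAMBP and at 31.3 and 29.4 CPM in the libraries labelled KO+CFLAR. For STAMBP the groups overlapped, and for CFLAR both KO+CFLAR libraries lay below both KO+STAMBP libraries. The log2 difference, KO+CFLAR minus KO+STAMBP throughout, was -0.05 ± 0.08 (SE) for STAMBP with an adjusted p of 0.888 and -0.08 ± 0.07 for CFLAR with an adjusted p of 0.737. Its 95% interval ran from -0.22 to 0.12 for STAMBP and from -0.23 to 0.07 for CFLAR. WT held 45.3 ± 2.7 CPM of STAMBP and 32.3 ± 2.7 CPM of CFLAR (SD, n = 2), and the 4 knockout libraries 18.6 ± 1.2 and 254 ± 8.1 CPM (SD, n = 4). The libraries labelled KO+CFLAR thus showed no excess of CFLAR over WT or over KO+STAMBP, and their STAMBP was at the WT level, which goes against their label. Neither measurement tells an added copy from the cell's own gene.

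Expression in the 2 rescues was close. At a Benjamini-Hochberg adjusted p under 0.05, 229 genes, or 1.09% of those tested, were called, with 132 (0.627%) higher and 97 (0.461%) lower in KO+CFLAR. At an unadjusted p under 0.05 there were 2597 genes, 6.77% of all tested genes higher and 5.56% lower. The called differences were small, with a median of 1.24-fold. Only 22 higher and 21 lower genes differed by at least 1.5-fold, and 15 and 8 by at least 2-fold. For 15497 genes (73.6%) the 95% interval lay wholly within 2-fold in either direction. Among 11229 genes of at least 10 CPM, 10957 (97.6%) had an interval within 1.5-fold. The share called rose with the level, from 0.0949% to 3.02% between the lowest and the highest of 4 equal classes of level. All 229 called genes, and 9068 (43.1%) of all tested genes, had no overlap between the groups. Scaling by library size alone gave 108 higher and 122 lower calls, so the balance between the directions was not stable. The counts also rested on single libraries: 52 genes were called without KO+CFLAR replicate 1, 313 without KO+CFLAR replicate 2, 27 without KO+STAMBP replicate 1 and 29 without KO+STAMBP replicate 2. Counts for gene groups below are repeated with 1 library left out, in that order. Such counts stand against 0.627% of all tested genes called higher, 0.461% called lower and 3.02% called in the highest level class.

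**Figure D1:**
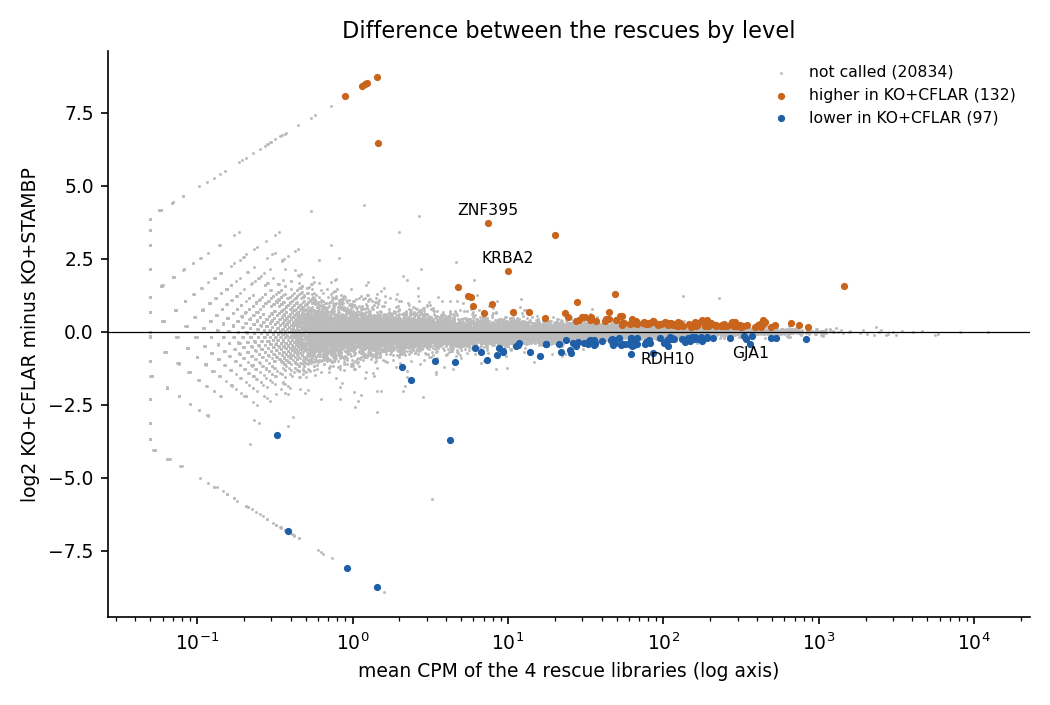
Each point is 1 of the 21063 tested genes, with the mean CPM of the 4 rescue libraries on a log axis (values under 0.05 drawn at 0.05) and the log2 difference, KO+CFLAR minus KO+STAMBP, on the vertical axis. The 132 genes called higher are orange and the 97 called lower are blue; most lie within 1.5-fold, and among the differences of at least 2-fold the gene with the highest level has no symbol and lies at 730 to 2340 CPM.

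Markers of neural progenitors were present in both rescues and 5 of 30 were called higher in KO+CFLAR, with 0 lower. The list's median log2 difference was 0.07, against a median near 0 over all tested genes, and 23 of 30 members lay above 0, against 49.2% of all tested genes. SOX2, a transcription factor of neural stem cells, was at 192 and 189 CPM in KO+STAMBP and 192 and 192 CPM in KO+CFLAR, so the pan-progenitor marker did not separate the groups. SLC1A3, a glutamate transporter of radial glia, was at 179 and 182 CPM in KO+STAMBP and at 225 and 216 CPM in KO+CFLAR (log2 0.29 ± 0.04, adjusted p = 0.0024). GLI3, a transcription factor of the hedgehog pathway that is needed for dorsal forebrain, was at 185 and 176 CPM and then 225 and 219 CPM (log2 0.30 ± 0.05, adjusted p = 0.0078). In both genes each KO+CFLAR library was above each KO+STAMBP library. The other called members were NOTCH1, MOXD1 and TNC. Single omissions left 2, 4, 1 and 2 members called. In bulk RNA, fewer cells of a type and less RNA per cell cannot be told apart. Of 10 pluripotency markers tested, 0 were called and 1 had an unadjusted p under 0.05 (edgeR; 0 by DESeq2), and POU5F1 stayed at 0.816 to 1.5 CPM in the 4 libraries. NANOG did not pass the filter on low counts.

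The Notch pathway, in which ligands on one cell activate receptors on its neighbour and keep progenitors undifferentiated, had 3 of 23 members called higher and 0 lower. The receptor NOTCH1 (chromosome 9, 136494433 to 136545786) was at 153 and 156 CPM in KO+STAMBP and at 203 and 194 CPM in KO+CFLAR. The groups did not overlap, and NOTCH1 was higher by 0.36 ± 0.04 on the log2 scale (adjusted p = 0.0019). It was called in each of the 14 alternative analyses. NRARP, a target gene that limits Notch signalling, was at 24.2 and 24.0 CPM and then 30.1 and 31.3 CPM (log2 0.35 ± 0.07, adjusted p = 0.026). HES6, a HES family member of committed progenitors, was at 67.6 and 71.2 CPM and then 79.5 and 88.9 CPM (log2 0.28 ± 0.06, adjusted p = 0.048). The other 20 members were not called. The ligands DLL1 and JAG1 had log2 differences of 0.01 and -0.00, and the effector HES1 of 0.02, all with adjusted p-values over 0.9. The median over the list was 0.02. Leaving out 1 library gave 2, 2, 1 and 1 called members.

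WNT genes were called in both directions. FZD8 (chromosome 10, 35638249 to 35642278), a WNT receptor, was at 44.2 and 42.7 CPM in KO+STAMBP and at 61.8 and 63.1 CPM in KO+CFLAR, 1.44-fold higher (log2 0.52 ± 0.05, adjusted p = 0.00063). SFRP1, a secreted WNT antagonist, was at 153 and 154 CPM and then 204 and 203 CPM (log2 0.41 ± 0.04, adjusted p = 0.00063). Both were called in all 14 alternatives, and their replicates lay closer together than the groups did. The secreted WNT amplifiers RSPO1 and RSPO2 and the antagonist SFRP2 were lower. RSPO1 was at 74.4 and 74.1 CPM and then 56.5 and 53.2 CPM (log2 -0.44 ± 0.08, adjusted p = 0.024), while WT held 10.2 CPM and the knockout 0.069 CPM. SFRP2 was at 52.5 and 49.8 CPM and then 40.7 and 42.5 CPM (log2 -0.30 ± 0.05, adjusted p = 0.012). Of 40 WNT genes, 2 were called higher and 3 lower with a median of -0.05. The 2 higher calls held with any 1 library left out, while 0, 1, 0 and 0 lower calls were made. AXIN2, a general WNT target, differed by 0.03 with an adjusted p of 0.93. In the hedgehog list, GLI3 was the 1 member of 14 called, and 4 had an unadjusted p under 0.05, all higher. Single omissions left 0, 1, 0 and 0 hedgehog members called.

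**Figure D2:**
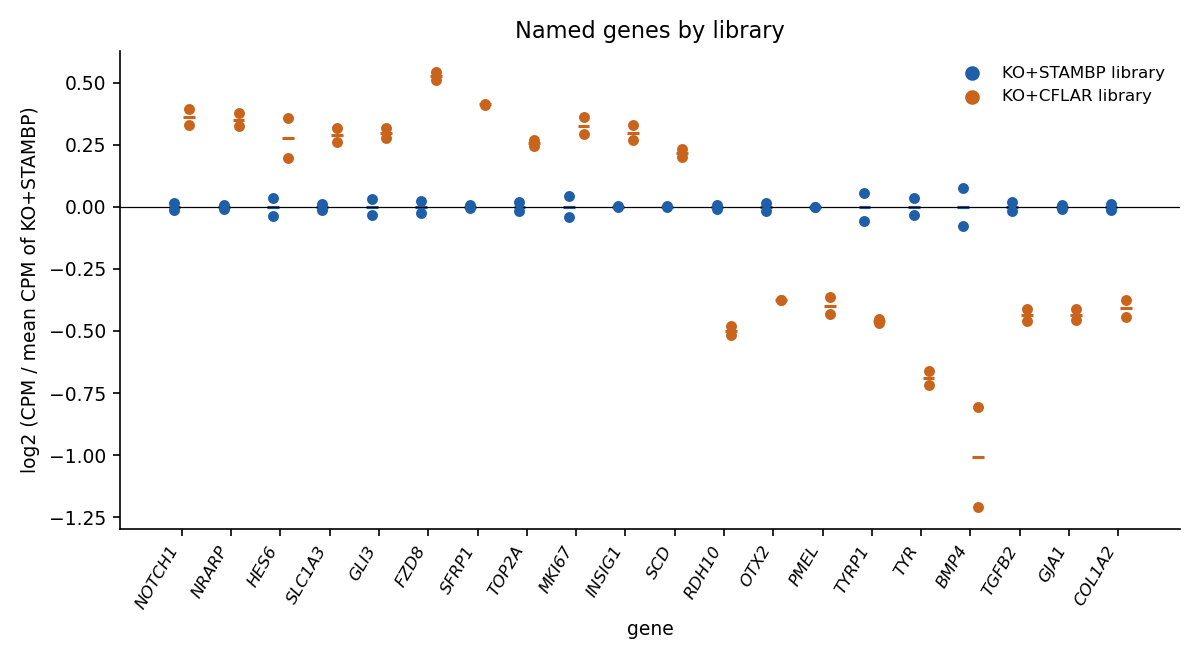
Each point is the level of 1 library for 1 of 20 named genes, as the log2 of its CPM over the mean CPM of KO+STAMBP, with KO+STAMBP in blue, KO+CFLAR in orange and short lines at the mean of the 2 points on this scale. The groups do not overlap for any gene shown; BMP4 and TYR lie lowest and FZD8 highest, and the KO+CFLAR replicates of BMP4 and HES6 stand farther apart than those of SFRP1 or OTX2.

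Some genes of cell division were called higher in KO+CFLAR. Of 30 genes of G2/M and mitosis, 5 were called, all higher, 28 lay above 0 and the median log2 difference was 0.13. TOP2A, the topoisomerase that untangles chromosomes, was at 252 and 246 CPM in KO+STAMBP and at 300 and 295 CPM in KO+CFLAR (log2 0.26 ± 0.03, adjusted p = 0.0039). MKI67, the proliferation marker Ki-67, was at 170 and 160 CPM and then 212 and 203 CPM (log2 0.33 ± 0.05, adjusted p = 0.0091). CENPF, a kinetochore protein, was at 141 and 141 CPM and then 182 and 171 CPM (log2 0.32 ± 0.04, adjusted p = 0.0042). In none of the 3 did the groups overlap. ASPM, a spindle pole protein, and the kinesin KIF11, named here after its value was seen, were the other called members. Cyclin and kinase genes of the same phase had smaller differences that did not pass the test, with 0.05 for CCNB1, 0.13 for CDK1 and -0.01 for AURKA. For G1/S and DNA replication the median was 0.14, with 25 of 30 members above 0. There 2 were called higher, among them UHRF1, which carries DNA methylation through replication, and 1 lower, CCND1. CCND1, cyclin D1, was at 50.1 and 50.9 CPM and then 43.1 and 42.6 CPM (log2 -0.24 ± 0.04, adjusted p = 0.024). WT held more of these transcripts than either rescue for TOP2A (463 CPM) and MKI67 (382 CPM). With 1 library left out, 2, 5, 0 and 0 of the G2/M genes and 0, 2, 0 and 0 of the G1/S genes were called higher, and the CCND1 call was lost each time.

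Some genes of sterol and fatty acid synthesis were also called higher. This pathway is driven by the SREBP factors, which the INSIG proteins hold in the endoplasmic reticulum when sterols are plentiful. Of 32 genes, 6 were called higher and 0 lower, 19 had an unadjusted p under 0.05 in the higher direction and 1 in the lower, 29 lay above 0 and the median was 0.12. The promoter of SREBF2 is shown because it is the called member whose window holds a sterol regulatory element, TCACNCCAC, the known binding sequence of SREBPs. The 250 bases before its RefSeq start (GRCh38.p14, chr22:41832855-41833104, plus strand) hold 1 match, in capitals, 133 bases before the start.
SREBF2: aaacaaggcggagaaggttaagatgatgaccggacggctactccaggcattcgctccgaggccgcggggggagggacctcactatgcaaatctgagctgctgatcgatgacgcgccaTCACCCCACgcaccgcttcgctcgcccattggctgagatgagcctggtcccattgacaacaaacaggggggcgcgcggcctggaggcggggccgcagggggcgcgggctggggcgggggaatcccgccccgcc
On either strand, 0.883% of 35116 RefSeq windows of this length hold the motif. The windows of INSIG1 and SCD do not. A match describes the letters and is no evidence of a site in use. SREBF2, the SREBP gene that drives cholesterol synthesis, was at 371 and 357 CPM in KO+STAMBP and at 411 and 412 CPM in KO+CFLAR (log2 0.18 ± 0.03, adjusted p = 0.026). INSIG1 was at 67.0 and 67.1 CPM and then 84.2 and 80.7 CPM (log2 0.30 ± 0.05, adjusted p = 0.013). SCD, which makes monounsaturated fatty acids, was at 486 and 485 CPM and then 570 and 557 CPM (log2 0.22 ± 0.04, adjusted p = 0.015). All 3 genes were higher in both KO+CFLAR libraries than in either KO+STAMBP library. FASN, fatty acid synthase, was higher by 0.25 ± 0.04 (adjusted p = 0.013). DHCR7, which makes the last step to cholesterol, was also called and is named after its value was seen. It was at 73.7 and 68.8 CPM and then 81.7 and 90.4 CPM (log2 0.27 ± 0.06, adjusted p = 0.038). The call counts for sterol genes were 2, 5, 0 and 0 with 1 library left out.

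Of 19 genes of the eye field and retina, 4 were called, all lower in KO+CFLAR, 14 lay below 0 and the median log2 difference was -0.24. The promoters of TYR and TYRP1 are shown because both hold 2 copies of CATGTG, the core of the M box, a sequence that the pigment cell factor MITF is known to bind. Each is the 250 bases before the RefSeq start on the plus strand of GRCh38.p14, with the matches in capitals. For TYR (chr11:89177625-89177874) they begin 104 and 12 bases before the start. For TYRP1 (chr9:12693135-12693384) they begin 144 bases before it on the gene's strand and 11 bases before it on the other strand, so that the printed strand reads CACATG there.
TYR: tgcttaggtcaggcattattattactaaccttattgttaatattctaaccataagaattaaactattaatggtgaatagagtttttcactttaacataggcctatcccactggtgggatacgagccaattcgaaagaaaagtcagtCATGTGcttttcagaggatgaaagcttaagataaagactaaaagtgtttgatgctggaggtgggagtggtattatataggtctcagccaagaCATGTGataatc
TYRP1: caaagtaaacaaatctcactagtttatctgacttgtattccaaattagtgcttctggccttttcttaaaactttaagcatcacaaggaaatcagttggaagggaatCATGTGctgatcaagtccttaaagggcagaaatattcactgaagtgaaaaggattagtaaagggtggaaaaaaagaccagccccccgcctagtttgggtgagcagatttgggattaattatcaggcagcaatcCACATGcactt
At least 1 CATGTG on either strand is held by 9.42% of the 35116 RefSeq windows and by 6.19% of the 13274 tested genes with an entry. Among called genes with an entry it is held by 11 of 60 lower (18.3%) and 2 of 90 higher (2.22%), given as a description without a test. TYR, tyrosinase, the first enzyme of melanin synthesis, was at 16.6 and 17.4 CPM in KO+STAMBP and at 10.8 and 10.3 CPM in KO+CFLAR, 1.61-fold lower in KO+CFLAR (log2 -0.69 ± 0.13, adjusted p = 0.037). TYRP1, a tyrosinase-related enzyme of the same pathway, was at 63.8 and 59.0 CPM and then 44.4 and 44.9 CPM (log2 -0.46 ± 0.08, adjusted p = 0.021). PMEL, which forms the fibrils of the melanosome, was at 118 and 118 CPM and then 87.5 and 91.8 CPM (log2 -0.40 ± 0.05, adjusted p = 0.0018). For all 3 the KO+CFLAR libraries lay below the KO+STAMBP libraries without overlap. PMEL was called in all 14 alternatives, but TYR in only 9 and TYRP1 in only 10 of them. With 1 library left out, the log2 difference ran from -0.72 to -0.65 for TYR and from -0.51 to -0.40 for TYRP1. DCT, the third enzyme of the tyrosinase family, stood in no list and is named after its value was seen. It was at 168 and 164 CPM and then 135 and 129 CPM (log2 -0.33 ± 0.07, adjusted p = 0.038). MITF itself was at 9.44 and 11.3 CPM and then 8.01 and 7.17 CPM, and its log2 difference of -0.45 ± 0.16 did not pass the test (adjusted p = 0.24). OTX2, a transcription factor of the eye field and of choroid plexus, was at 91.2 and 93.4 CPM and then 71.3 and 71.2 CPM (log2 -0.37 ± 0.06, adjusted p = 0.0067). The retinal factor RAX had a value of -0.24 that did not pass the test. The list's summed level was 654 and 665 CPM in KO+STAMBP and 577 and 593 CPM in KO+CFLAR. With 1 library left out, 2, 2, 1 and 1 members were called.

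Of 24 tested genes of the cortical hem and choroid plexus, 3 were called lower in KO+CFLAR and 0 higher, 22 lay below 0, 12 had an unadjusted p under 0.05, all lower, and the median was -0.18. Their summed level was 1182 and 1186 CPM in KO+STAMBP and 1023 and 1027 CPM in KO+CFLAR, with no overlap. The called members were OTX2, RSPO2 and BMP4, of which OTX2 also belongs to the eye list. TTR, the transport protein that choroid plexus secretes, was at 328 and 332 CPM and then 288 and 297 CPM, a log2 difference of -0.17 ± 0.04 that did not pass the test (adjusted p = 0.076). LMX1A, a hem factor, was at 20.5 and 20.7 CPM and then 16.4 and 14.5 CPM (log2 -0.42, adjusted p = 0.11). No tested member was at 0 in any of the 4 libraries, and KL did not pass the filter. Omitting single libraries gave 1, 2, 0 and 0 lower calls. The part that these markers play in the other differences was not tested.

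Ligands and targets of BMP and TGF-beta lay mostly on the lower side in KO+CFLAR. Of 36 genes, 32 lay below 0 with a median of -0.21, and 2 were called lower and 1 higher. BMP4 (chromosome 14, 53949736 to 53958761), a hem ligand, was at 4.28 and 4.76 CPM in KO+STAMBP and at 1.96 and 2.59 CPM in KO+CFLAR, 1.98-fold lower in KO+CFLAR (log2 -0.99 ± 0.18, adjusted p = 0.020). TGFB2, a TGF-beta ligand, was at 61.8 and 63.4 CPM and then 47.0 and 45.5 CPM (log2 -0.44 ± 0.07, adjusted p = 0.0073). Both ligands were lower without overlap, BMP4 at under 5 CPM in all 4 libraries. The BMP target ID1 was at 52.4 and 50.4 CPM and then 35.5 and 43.1 CPM and did not pass the test (log2 -0.39 ± 0.09, adjusted p = 0.052). ID4, of the same family, was higher, at 407 and 400 CPM and then 455 and 450 CPM (log2 0.17, adjusted p = 0.044). With library size as the scaling, 5 were called lower and 0 higher. Omitting single libraries gave 1, 4, 0 and 0 lower calls and 0 higher ones each time.

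In the retinoic acid pathway, 3 of 17 genes were called lower and 0 higher, with 7 members above 0 and a median of -0.17. RDH10, which oxidises retinol to retinal in the first step of retinoic acid synthesis, had the joint smallest adjusted p of the comparison. It was at 126 and 124 CPM in KO+STAMBP and at 87.4 and 89.6 CPM in KO+CFLAR, 1.41-fold lower in KO+CFLAR (log2 -0.50 ± 0.04, adjusted p = 0.0003), and was called in all 14 alternatives. WT held 49.4 CPM and the knockout 35.6 CPM of RDH10, so both rescues lay above both references and KO+CFLAR lay nearer to WT. ALDH1A3, which makes retinoic acid from retinal, was at 54.2 and 55.8 CPM and then 43.5 and 41.2 CPM (log2 -0.38 ± 0.05, adjusted p = 0.0036). CRABP2, which carries retinoic acid to the nucleus, was at 36.7 and 37.5 CPM and then 28.6 and 30.7 CPM (log2 -0.32, adjusted p = 0.015). The receptors RARA and RXRA and the degrading enzyme CYP26B1 had values of -0.17, 0.04 and 0.13 that did not pass the test. The count of called members was 2, 4, 2 and 1 with 1 library left out.

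Among astroglial genes, 4 of 18 were called lower and 0 higher, with a median of -0.15. GJA1 (chromosome 6, 121435577 to 121449727), the gap junction protein connexin 43, was at 415 and 420 CPM in KO+STAMBP and at 314 and 304 CPM in KO+CFLAR. It was 1.35-fold lower in KO+CFLAR (log2 -0.43 ± 0.04, adjusted p = 0.0003) and was called in all 14 alternatives. SPARCL1, a secreted matrix glycoprotein, was at 66.5 and 62.5 CPM and then 49.7 and 47.5 CPM (log2 -0.41 ± 0.07, adjusted p = 0.016). CLU, a secreted chaperone, was lower by a smaller amount, with -0.24 ± 0.04 (adjusted p = 0.012). The defining astrocyte genes GFAP and AQP4 were at 0.326 to 0.671 CPM and 0.635 to 1.34 CPM in the 4 libraries, near the limit of detection, and the summed level of the list was 2407 and 2414 CPM in KO+STAMBP and 2238 and 2212 CPM in KO+CFLAR. Leaving out 1 library gave 1, 4, 1 and 1 called members.

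**Figure D3:**
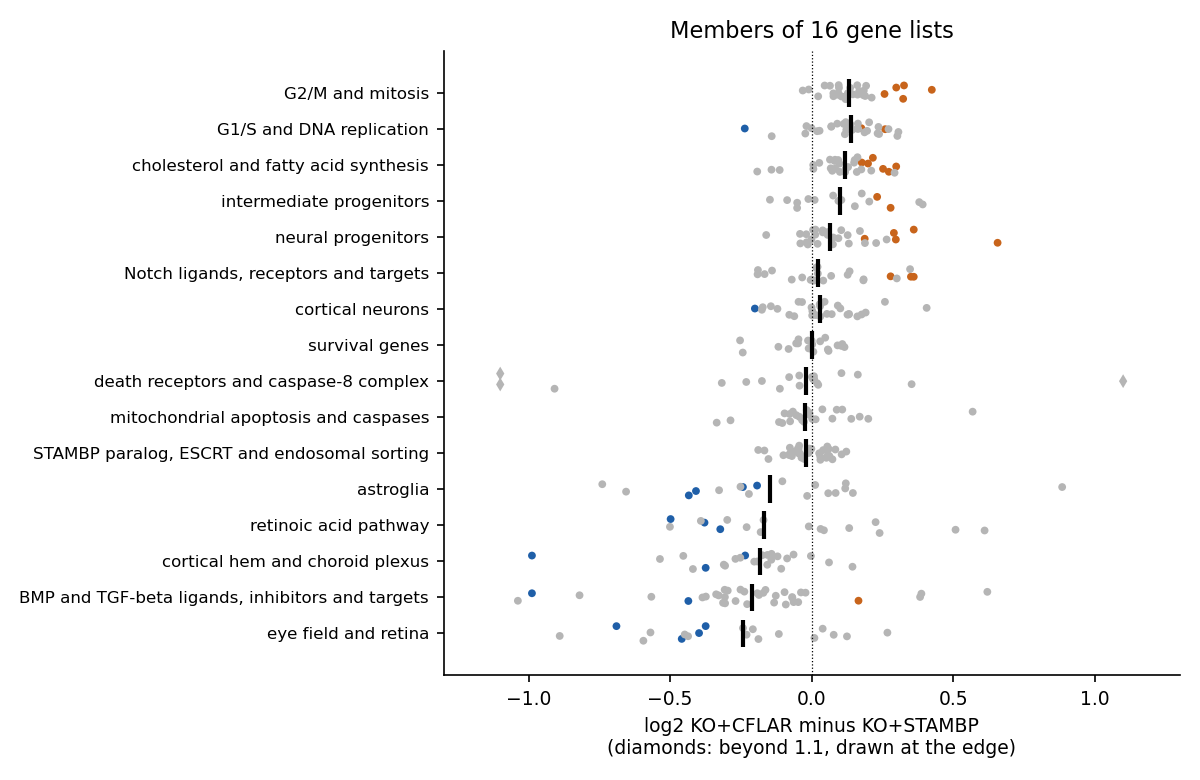
Each point is a tested gene of 1 of 16 lists at its log2 difference, KO+CFLAR minus KO+STAMBP; orange and blue points were called higher and lower, grey points were not called, black bars are list medians and the vertical position within a list carries no value. The medians run from -0.24 for eye field and retina to 0.14 for G1/S, and the apoptosis, survival and endosomal sorting lists have medians of -0.02 to 0.00 and no coloured point.

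Matrix, mesenchymal and epithelial genes held further lower calls. COL1A2, a chain of type I collagen, was at 68.1 and 69.3 CPM in KO+STAMBP and at 50.6 and 53.02 CPM in KO+CFLAR (log2 -0.41 ± 0.04, adjusted p = 0.0011), while the knockout held 1043 CPM. FN1, fibronectin, was lower by a smaller amount, with -0.21 ± 0.03 (adjusted p = 0.0091). Of 38 matrix genes, 4 were called lower and 2 higher with a median of -0.08. VCAN, a large proteoglycan, was one of the higher ones, at 406 and 391 CPM and then 521 and 465 CPM (log2 0.31 ± 0.05, adjusted p = 0.0099). Neural crest and mesenchyme had 2 of 23 members called lower and 0 higher (median -0.11, summed level 449.6 and 453.8 CPM in KO+STAMBP and 404.8 and 403.3 CPM in KO+CFLAR). Epithelial and non-neural ectoderm had 1 of 25 lower and 0 higher (median -0.09). That member was KRT18, a keratin of simple epithelia, at 13.5 and 13.2 CPM and then 10.2 and 10.2 CPM, against 1332 CPM in the knockout. Outside the lists, the keratins KRT6A and KRT17 and the cornified envelope gene SPRR3 were among the 15 largest lower differences, with -1.04, -0.70 and -1.20. All 3 were below 9 CPM in each rescue library. With 1 library left out, 1, 4, 1 and 1 matrix genes, 1, 2, 1 and 1 mesenchymal genes and 0 epithelial genes each time were called lower.

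Neuronal genes gave a mixed picture. LMO3, a LIM-only transcriptional cofactor, was at 398 and 394 CPM in KO+STAMBP and at 511 and 489 CPM in KO+CFLAR (log2 0.34 ± 0.04, adjusted p = 0.0008). GRIK3, a kainate receptor subunit, was at 165 and 167 CPM and then 221 and 215 CPM (log2 0.39 ± 0.04, adjusted p = 0.0015). Both were higher without overlap and called in all 14 alternatives, and both were under 2 CPM in the knockout. EOMES, the factor that marks intermediate progenitors of cortex, was at 106 and 106 CPM and then 124 and 126 CPM (log2 0.23 ± 0.04, adjusted p = 0.022). It was 1 of 2 called members of 16 intermediate progenitor genes, both higher, with a list median of 0.10, and is also the 1 called member of 10 endoderm and mesoderm genes. GAP43, a growth cone protein, was the 1 of 30 cortical neuron genes called, and it was lower, at 520 and 526 CPM and then 442 and 469 CPM (log2 -0.20 ± 0.04, adjusted p = 0.038). The cortical neuron median was 0.03. Axon guidance had 5 of 38 genes called higher and 1 lower with a median of 0.01. Among them ROBO2, a SLIT receptor, was at 99.0 and 92.5 CPM and then 123 and 114 CPM (log2 0.31 ± 0.06, adjusted p = 0.022). Voltage-gated ion channels had 2 of 32 called higher and 0 lower (median 0.11), among them the potassium channel KCNQ3 with 0.34 ± 0.05 (adjusted p = 0.0042). Synapse genes had 1 of 42 called higher and 0 lower (median 0.05). Among all tested genes, 0.627% were called higher and 0.461% lower, and 3.02% were called in the highest of 4 level classes. The synapse and cortical neuron counts were near the last of these shares. With 1 library left out, 1, 0, 0 and 0 intermediate progenitor genes, 0, 5, 0 and 0 axon guidance genes, 1, 4, 0 and 0 ion channels and 1, 3, 1 and 1 synapse genes were called higher, and the GAP43 call held only without KO+CFLAR replicate 2. EOMES was called in none of the 4 analyses that left out 1 library.

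The pathways nearest to the added genes did not separate the rescues. By edgeR's quasi-likelihood test, 0 of 20 genes of death receptors and the caspase-8 complex were called, and 2 had an unadjusted p under 0.05, both lower. Of 26 mitochondrial apoptosis and caspase genes 0 were called, with 3 under an unadjusted 0.05. Of 20 survival genes 0 were called, with 2 under it, and of 34 genes of the STAMBP paralog, ESCRT and endosomal sorting 0 were called, with 2 under it. DESeq2 called 0 in each of these 4 lists. Their medians were -0.02, -0.02, 0.00 and -0.02. The 95% interval of the difference lay within 1.5-fold for 11, 23, 17 and 33 of the members. CASP8, the protease that CFLAR restrains, was at 1.29 and 2.46 CPM in KO+STAMBP and at 2.003 and 2.18 CPM in KO+CFLAR, too low to bound its difference closely. The death receptor TNFRSF10B was at 70.1 and 69.4 CPM and then 69.6 and 65.9 CPM (log2 -0.04, adjusted p = 0.79).

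Stress, housekeeping and further lists held 0 to 3 calls each by edgeR. Of all tested genes, 0.627% were called higher and 0.461% lower, and 3.02% were called in the highest of 4 level classes. CDKN1A, the p53 target and cyclin-dependent kinase inhibitor p21, was at 40.0 and 39.5 CPM in KO+STAMBP and at 29.8 and 34.9 CPM in KO+CFLAR (log2 -0.30 ± 0.07, adjusted p = 0.048), against 1635 CPM in the knockout. It was the 1 of 30 p53 targets called. Autophagy and lysosome had 2 of 31 lower, among them SQSTM1, the autophagy receptor p62, with -0.19 ± 0.04 (adjusted p = 0.024), and the protein folding and integrated stress response had 1 of 29, the chaperone CALR, with -0.20 ± 0.04 (adjusted p = 0.030). Of FGF and MAPK feedback genes, 2 of 31 were lower, among them the ERK phosphatase DUSP6, at 29.8 and 29.6 CPM and then 24.5 and 21.3 CPM (log2 -0.38 ± 0.08, adjusted p = 0.047). Regional patterning factors had 1 of 35 higher, DMRTA2, and 1 lower, OTX2. Imprinted genes had 3 of 28 lower, namely H19, IGF2 and MEST, of which H19 was at 10.7 and 11.0 CPM and then 5.50 and 6.85 CPM (log2 -0.81 ± 0.17, adjusted p = 0.039). Clustered protocadherins had 1 of 53 higher and 1 lower, and they share exons within a cluster, so the split of reads among them is uncertain. Of 15 mitochondrially encoded genes 1 was lower, MT-ND6, and 14 lay below 0 with a median of -0.09. Of 75 cytosolic ribosomal protein genes 0 were called, 6 had an unadjusted p under 0.05, all lower, and 62 lay below 0 with a median of -0.04. Mitochondrially encoded genes took 4.96% and 5.06% of counts in KO+STAMBP and 4.605% and 4.89% in KO+CFLAR. In 11 further lists edgeR called 0 genes: Cajal-Retzius cells, ventral forebrain and interneurons, midbrain and hindbrain, oligodendrocyte precursors, endothelium and blood, NF-kappaB targets, interferon response, heat shock, glycolysis and hypoxia, immediate early genes and replication-dependent histones. Between 0 and 9 of their members had an unadjusted p under 0.05, and DESeq2 called 3 interferon, 1 heat shock and 1 glycolysis gene. Without KO+STAMBP replicate 1 or 2, the lists of this paragraph that had calls had 0, except for 1 protocadherin without KO+STAMBP replicate 1, and without KO+CFLAR replicate 1 they had 1 patterning and 1 imprinted gene. Without KO+CFLAR replicate 2, lower calls numbered 2 each for the stress response, imprinted and mitochondrially encoded genes. They numbered 1 each for p53 targets, autophagy, FGF, patterning, protocadherins, interferon, heat shock and immediate early genes, and 1 imprinted gene was called higher.

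Some of the largest differences in level were in genes that overlap or nearly copy another gene. Others had no annotated exonic overlap. Among these, a gene without a symbol was at 730 and 750 CPM in KO+STAMBP and at 2340 and 2027 CPM in KO+CFLAR. ZNF395, a zinc finger gene, was at 0.516 and 1.55 CPM in KO+STAMBP and at 15.8 and 11.7 CPM in KO+CFLAR, 13.3-fold higher (log2 3.74 ± 0.37, adjusted p = 0.00063). FBXO16, which shares 2032 exonic bases with it on the same strand, was at 44.2 and 38.8 CPM and then 28.9 and 33.2 CPM. The sum of the pair was 42.5 CPM in KO+STAMBP and 44.8 CPM in KO+CFLAR, a log2 difference of 0.08. KRBA2 was at 2.01 and 5.67 CPM and then 17.6 and 14.9 CPM, and with the gene that overlaps it on the same strand the sum was 56.4 and 56.2 CPM. GALNT4, a glycosyltransferase gene, was at 3.51 and 3.15 CPM and then 8.48 and 6.98 CPM, and with the readthrough POC1B-GALNT4 the sum was 7.995 and 8.71 CPM. The log2 differences of these sums were 0.08 for ZNF395, -0.0037 for KRBA2 and 0.12 for GALNT4. FBXO16 was called lower (log2 -0.42, adjusted p = 0.033). The partners of KRBA2 (log2 -0.39, adjusted p = 0.21) and GALNT4 (log2 -2.23, adjusted p = 0.085) were not called. The part that the split of reads plays in these differences was not tested. UPK3BL2 had 0 and 0 counts in KO+STAMBP and 47 and 31 in KO+CFLAR, at least 22.8-fold higher against a floor of 3 counts over the group, while its near copy UPK3BL1 was lower, at 33.0 and 30.0 CPM and then 16.8 and 21.4 CPM. PDCD6-AHRR, a readthrough, had 0 and 0 counts and then 66 and 34, at least 29.2-fold higher. DCHS1-AS1 had 26 and 44 counts and then 0 and 0, at least 26.7-fold lower in KO+CFLAR, and overlaps DCHS1 on the opposite strand, from which its reads cannot be told apart. PCDHGC3 and PKD1P3 belong to families of near copies and are uncertain in the same way. Among the genes named by rule, 25 share at least 50 exonic bases with another tested gene on either strand, and for 19 of them that gene holds at least 10% of their level. These 19 include PMEL with CDK2 (89 bases), CCND1 with LTO1, KRT18 with KRT8, SQSTM1 with MRNIP and MGAT4B, IGF2 with INS-IGF2 and TGFB2 with TGFB2-OT1, so their values may hold reads of the neighbour. CDK2 itself was at 45.1 CPM on average in KO+STAMBP and 48.0 CPM in KO+CFLAR. These bounds cover counting error only.

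Some large differences stood on genes without an annotated overlap of at least 50 exonic bases with another tested gene. BCL6, a transcriptional repressor that drives neurogenesis in cortical progenitors, was at 34.7 and 34.2 CPM in KO+STAMBP and at 58.5 and 51.6 CPM in KO+CFLAR, 1.60-fold higher (log2 0.68 ± 0.08, adjusted p = 0.0018), and was called in all 14 alternatives. STOX2, a storkhead box gene, was at 16.6 and 20.0 CPM and then 37.0 and 37.8 CPM, 2.04-fold higher (log2 1.03 ± 0.19, adjusted p = 0.018). The call for STOX2 was made in only 9 of the 14 alternatives. FBXO32, a ubiquitin ligase subunit known as atrogin-1, was at 4.59 and 3.74 CPM and then 7.69 and 7.76 CPM (log2 0.89 ± 0.13, adjusted p = 0.0053). In all 3 the groups were apart. In the other direction, MAF, a leucine zipper transcription factor, was at 73.3 and 75.2 CPM and then 55.4 and 56.0 CPM (log2 -0.42 ± 0.05, adjusted p = 0.0016). TPBG, a membrane glycoprotein that inhibits WNT signalling, was at 201 and 197 CPM and then 158 and 158 CPM (log2 -0.33 ± 0.04, adjusted p = 0.0016). MAF and TPBG were called in all 14 alternatives. In all, 15 genes had that property, 8 higher and 7 lower, and 13 of them carry a symbol.

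Gene length moved with the comparison. Across genes, Spearman's rho between exonic length and a library's deviation from the mean of the 4 was -0.125 and -0.181 in KO+STAMBP, 0.266 in KO+CFLAR replicate 1 and -0.0216 in KO+CFLAR replicate 2. KO+CFLAR replicate 1 therefore stood apart from its replicate. The median log2 difference went from -0.04 in the shortest of 5 length classes to 0.05 in the longest. Of the calls, 72 higher and 9 lower fell in the longest class and 8 higher and 22 lower in the shortest. Median exonic length was 10189.5 bases for genes called higher, 4165.5 for those called lower and 4253.5 for all tested. With the trend removed from each library, 91 genes were called higher and 106 lower, and 170 of the 229 calls were kept. The 59 lost were 47 higher and 12 lower, all of them of the same sign as before. Among 83 called genes named by rule, 6 lost the call: CACNA1A, SPRR3, LSR, TNFRSF12A, DUSP6 and NPC2. CACNA1A, a calcium channel gene, went from 0.33 to 0.20 with an adjusted p of 0.244, in a range of 0.0006 to 0.249 over its alternatives. The list medians kept their sign for cell division (0.16 for G2/M), sterol synthesis (0.11), hem and choroid plexus (-0.16), eye field (-0.22) and BMP and TGF-beta genes (-0.20). They shrank for voltage-gated ion channels (0.11 to 0.04), synapse (0.05 to 0.02) and cortical neuron genes (0.03 to 0.02). The sign reversed for imprinted genes (0.01 to -0.03), glycolysis and hypoxia (0.01 to -0.01) and oligodendrocyte precursors (0.06 to -0.01). The part that length plays in the remaining calls was not tested further.

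**Figure D4:**
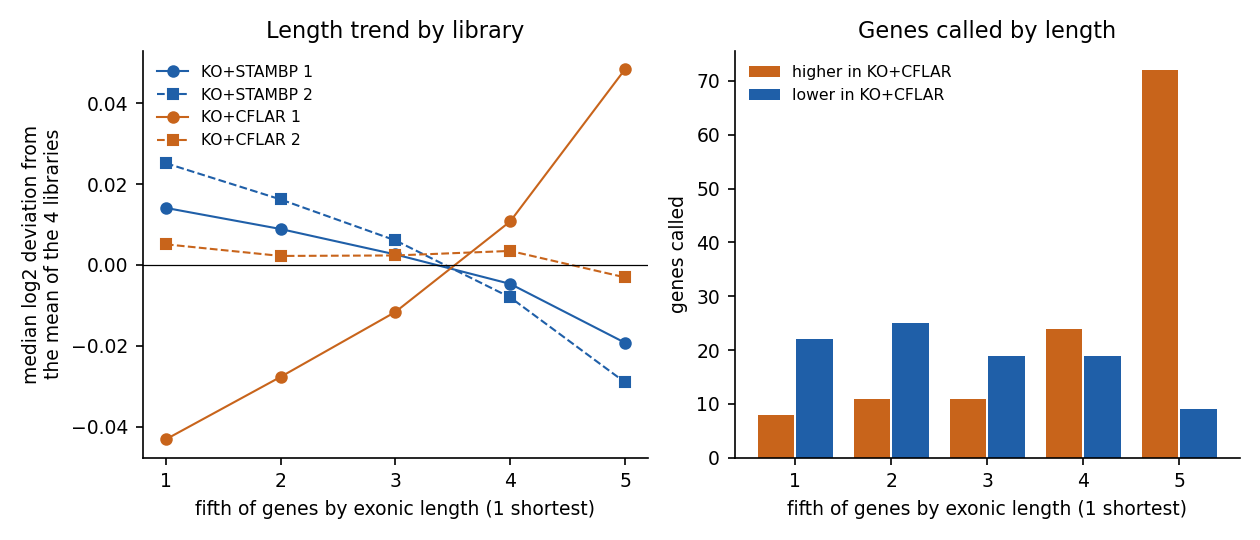
Left, the median log2 deviation of each rescue library from the mean of the 4 over 5 classes of genes by exonic length, with KO+STAMBP in blue and KO+CFLAR in orange; KO+CFLAR replicate 1 climbs with length while the others fall or stay level. Right, genes called higher (orange) and lower (blue) in each class, with 72 higher and 9 lower among the longest genes.

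Set against the knockout, which shares no library with this comparison, 214 of the 229 called genes were also called between knockout and WT, where 76.2% of all tested genes were. Of these 214, 153 (71.5%) differed between the rescues in the direction opposite to the knockout change and 61 in the same direction. Among all tested genes called in the knockout, 55.8% did not share the sign of the knockout change, with genes of a rescue difference of 0 included. The 129 genes lower in the knockout split into 95 higher and 34 lower in KO+CFLAR, and the 85 genes higher in the knockout into 58 lower and 27 higher. KO+CFLAR was the rescue nearer to WT in 131 of 229 genes (57.2%, against 52.2% of all tested) and KO+STAMBP in 98. Both rescues lay below WT in 88 genes and above it in 88, with WT between them in 53. The share of opposite changes rested on the small differences and on single libraries. It was 16 of 35 (45.7%) among genes changed at least 1.5-fold, and 46.2% without KO+STAMBP replicate 1. NOTCH1 and FZD8 were lower in the knockout and higher in KO+CFLAR, with WT at 324 and 95.9 CPM, above both rescues. The knockout held 222 and 47.1 CPM of them, for NOTCH1 also above both rescues (155 CPM in KO+STAMBP and 199 CPM in KO+CFLAR). Of TYR, TYRP1 and RSPO1, WT held 6.48, 19.4 and 10.2 CPM, below both rescues, and the knockout held under 0.1 CPM of each. Over the 22 autosomes the median log2 difference lay between -0.0121 and 0.0151, so no whole chromosome stood apart.

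**Figure D5:**
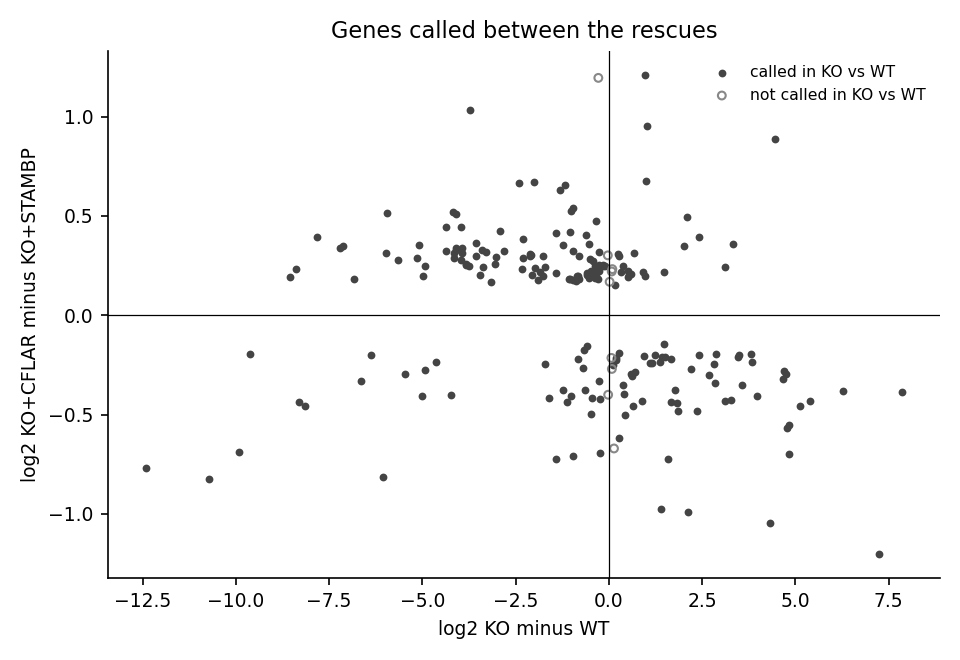
Each point is a gene called between the rescues, with its log2 change from WT to knockout across and its log2 difference, KO+CFLAR minus KO+STAMBP, up; filled points were also called between knockout and WT. The 211 genes with the smaller differences are drawn and the 18 with the largest differences in either direction are left out of the plotted range; more points lie in the upper left and lower right, where the signs are opposite.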

How the data were processed

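The table that the authors deposited holds unnormalized counts, as whole numbers for each gene. Tools listed in the submitters' processing notes, without roles, are RSEM 1.2.4, fastp 0.20.0 and DESeq2, and the builds are GRCh38 and hg38. Whether RSEM's estimates were rounded, the annotation release and the strand setting are not given in the sources used here, so reads of overlapping genes on either strand cannot be told apart. Per the labels, 1 µg of total RNA entered a TruSeq preparation.

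From the deposited counts, edgeR 4.0.16 in R 4.3.3 fitted a quasi-likelihood model with TMM factors and 5 group means over all 10 libraries, leaving 5 residual degrees of freedom. filterByExpr kept 21063 genes. All adjusted p-values are Benjamini-Hochberg values over these genes, called under 0.05. With only the 4 rescue libraries in the fit, 281 genes were called, among them 183 of the 229. SE is the log2 difference over the root of its F statistic. A count of 0 is taken as allowing up to 3 counts. The fit was also run on simulated counts that held no length trend. The outcome is not reported here, so it bears on none of the calls. Library pairs within a rescue had a chi-square per gene of 1.93 (KO+STAMBP) and 3.39 (KO+CFLAR), more than sampling alone gives. They were kept as separate libraries. Pairs across the rescues had 3.98 and 4.19 with KO+CFLAR replicate 2, and 5.55 and 6.14 with KO+CFLAR replicate 1. The KO+CFLAR libraries thus differed from each other almost as much as replicate 2 differed from KO+STAMBP.

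Named genes are STAMBP, CFLAR, the 15 largest differences and 5 smallest adjusted p in each direction among called genes of at least 2 CPM with a gene symbol and no overlap between the groups, and up to 4 called genes of each of 46 lists by adjusted p (up to 2 for lists with fewer than 4 called). Some genes that the rule or the lists take are not reported here. The comparison, the rule and the lists were chosen with earlier results of these data known. Positions come from GENCODE 29, and promoter sequences from RefSeq (GRCh38.p14), in which 13274 tested genes had an entry. Alternatives were DESeq2 1.42.0, other scalings and filters, only the 4 rescue libraries, the replicate number as a block and each library left out; the length trend was removed as an alternative added after seeing the data.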

Additional observations from a re-analysis of the deposited data

How the results depend on the processing

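All 229 called genes kept their sign in each of the 14 alternative analyses in which they were tested. None of them had overlap between the groups, so leaving out 1 library could hardly reverse a sign. The kept signs are therefore no measure of stability. Genes called higher numbered 206 with DESeq2 and 461 with no filter on low counts, and 15 to 212 with 1 library left out; genes called lower numbered 157, 319 and 12 to 101. Of at least 2-fold higher there were 82 with no filter, 29 with only the 4 rescue libraries and 5 to 20 with 1 library left out, and of at least 2-fold lower 91, 19 and 1 to 18, and 5 with the length trend removed. The share of called genes opposite to the knockout change was 45.7% at 1.5-fold or more and 46.2% to 70.2% with 1 library left out (59.3% without KO+STAMBP replicate 2). STAMBP reversed in sign to 0.0015 without KO+CFLAR replicate 2 and to 0.037 without KO+STAMBP replicate 2, in a range from -0.13, never called, and CFLAR lay between -0.17 and -0.03 over all 14 alternatives (-0.12 to -0.03 with 1 library left out). The cause of these moves was not tested. A group reduced to 1 library is assumed to vary like the others.

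The replicate block over all 10 libraries gave 177 higher and 124 lower calls, 13 of the lower at least 2-fold. The replicate block over the 4 rescue libraries gave 422 and 279 calls, 48 and 41 of them at least 2-fold. With the length trend removed as well, the replicate block gave 101 and 120. Deviations of same-numbered libraries correlated at -0.0324 between the rescues and at -0.0231 to 0.0797 between other groups, so the numbers were not taken as pairs. Depth limits genes of up to 1.96 CPM, the lowest of 4 level classes, where 0.0949% were called.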
